A study of Arabidopsis thaliana with 18 samples.

Results

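Monosomal RNA of dry Arabidopsis thaliana seeds was compared between the abci20 mutant and its background, the ecotype Col-0. The comparison rested on the 6 arrays labelled as monosomal, 3 of abci20 and 3 of Col-0, out of 18 arrays in the series, and the labels alone chose them. The other 12 arrays held polysomal and total RNA of the same genotypes, also 3 per group. All seeds were freshly harvested and dry, and each of the 3 biological replicates of a genotype was a bulk of plants grown in randomized complete blocks. Nothing in the labels gives the allele of the mutant, a treatment or a second line, so genotype stood for 1 mutant line against its background. No label says how the monosomal fraction was separated.

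A message bound by a single ribosome sediments as a monosome, and one bound by several as a polysome. Dry seeds hold stored messages from maturation, many of them on monosomes, and polysomes build up again when the seed takes up water. ABCI20 encodes a small soluble ATP-binding protein of the ABC transporter superfamily, and in Arabidopsis it acts with its relatives ABCI19 and ABCI21 at the endoplasmic reticulum, where the trio has been tied to the cytokinin response. The comparison asked which messages on single ribosomes differed in the mature seed when ABCI20 was disrupted.

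Values were log2 signals summarized with RMA, from 0.301 to 12.71 over 27827 probe sets, 1 per locus. An array reports each message relative to the RNA put on it, so a value says nothing about how many monosomes a seed held, and fewer cells of a type cannot be told apart from less RNA per cell. Across genes, the monosomal arrays of 1 genotype correlated at r = 0.958 to 0.969 and arrays of different genotypes at r = 0.944 to 0.965; genes are not independent replicates here. All 6 markers of the embryo and whole seed, among them the cruciferin gene CRA1 and the oleosin gene OLEO1, lay at or above percentile 99.2 of every monosomal array. The 6 seed coat markers lay between percentiles 5.03 and 60.1, and none of the 6 passed the test between genotypes.

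ABCI20 (AT5G02270) was measured first, because it checks the labels. Its log2 signal was 2.4, 2.06 and 1.63 in the abci20 arrays and 3.83, 5.09 and 4.37 in the Col-0 arrays. The genotypes did not overlap, and the mutant arrays held ABCI20 between percentiles 5.9 and 29.4 of all probe sets against 59 to 70.2 in Col-0. The gene fell by 2.4 log2 (SE 0.341, 5.27-fold, adjusted p = 0.00195, and 0.0556 with the spread of the 6 monosomal arrays alone). The array background was not examined, so how far this dim signal limits the size of the fall was not tested. ABCI19 differed by -0.65 (SE 0.296, adjusted p = 0.306) and ABCI21 by -0.30 (adjusted p = 0.63), neither past the threshold.

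Across the genome, 510 of 27827 probe sets (1.83%) passed an adjusted p of 0.05 in monosomal RNA. They were 303 higher in the mutant (1.09%) and 207 lower (0.744%), with a median change of 1.31 and -1.20 log2. At least 2-fold changes made up 251 of the higher and 160 of the lower genes. Before adjustment, 4139 probe sets (14.9%) had a p under 0.05. The median over all probe sets was -0.03. In 508 of the 510 the 3 mutant values lay all above or all below the 3 Col-0 values, which was so for 19.8% of all probe sets. Most called genes had a strong signal: the upper quartile of mean signal held 270 of the called genes (3.88% of its probe sets) and the lowest quartile 13 (0.187%). Among the dimmest quartile the called genes were mostly lower in the mutant, 11 against 2, whereas in the third quartile 141 were higher and 58 lower.

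**Figure D1:**
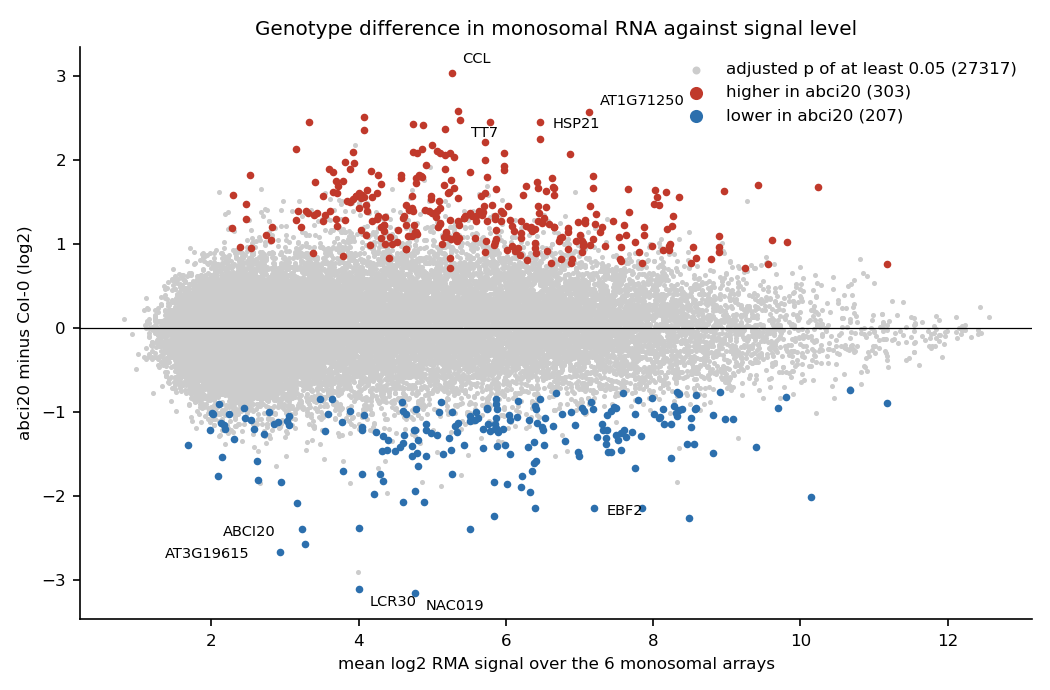
The x axis gives the mean log2 signal of a probe set over the 6 monosomal arrays and the y axis the difference abci20 minus Col-0 in log2, with 303 higher genes in red, 207 lower genes in blue and the remaining probe sets in grey. Called genes lie mostly at signals above 3.18, the upper bound of the second quartile. AT3G19615 lies below that bound and ABCI20 just above it.

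These counts leaned on how the spread was estimated and on single arrays. With the spread taken from the 6 compared arrays alone, 25 genes passed (14 higher, 11 lower), all among the 510, and 55 of the 72 called genes chosen by the naming rule missed the threshold. Leaving out a monosomal array gave 142, 482 and 211 genes without Col-0 replicates 1, 2 and 3, and 160, 100 and 467 without abci20 replicates 1, 2 and 3. Other settings raised the count, to 955 without abci20 total replicate 1, 970 with a robust variance trend, 977 with the 12 monosomal and polysomal arrays and 1087 when dim probe sets were dropped. A core of 80 genes, 49 higher and 31 lower, passed in the full set and without each of those 6 arrays in turn.

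The highest gain was in CCL, whose short-lived message is under clock control. Its signal was 6.73, 7.49 and 6.16 in abci20 and 3.53, 3.87 and 3.86 in Col-0, so that the lowest mutant array stood well above the highest Col-0 array. CCL rose by 3.04 log2 (SE 0.341, 8.21-fold, adjusted p = 0.000305). AT5G11420, which encodes a DUF642 protein of the cell wall, measured 6.57, 6.42 and 6.95 against 4.07, 4.32 and 3.75 and rose by 2.59 (SE 0.261, adjusted p = 8.81e-05). AT1G71250, a GDSL-type lipase gene, was nearly constant within the mutant at 8.39, 8.52 and 8.34, against 5.42, 6.09 and 5.99 in Col-0. Its rise of 2.58 (SE 0.217, 5.98-fold, adjusted p = 2.39e-05) had the smallest standard error of the 30 genes with the largest change.

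TT7, the flavonoid hydroxylase that decides between quercetin-type and kaempferol-type products, measured 6.48, 6.91 and 6.48 against 4.34, 4.08 and 4.01, a rise of 2.48 (SE 0.225, adjusted p = 2.39e-05). HSP21, a chloroplast small heat shock protein, measured 7.51, 7.65 and 7.90 against 4.68, 6.03 and 4.97, a rise of 2.46 (SE 0.312, adjusted p = 0.00107). For HSP21 the Col-0 arrays were the more scattered, with replicate 2 highest, and the groups still did not overlap. DWF1, a sterol reductase on the route to brassinosteroids, measured 5.07, 5.42 and 5.25 against 2.84, 2.33 and 3.50 and rose by 2.36 (SE 0.28). The B-box gene COL5 and the clock regulator PRR5 rose by 2.45 and 2.18, the ubiquitin ligase gene XBAT31 by 2.43 and the ethylene response factor gene ERF104 by 2.22. All these genes passed without any 1 of the compared arrays. With the 6 compared arrays alone, HSP21 and XBAT31 missed the threshold (adjusted p = 0.0526 and 0.0747).

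Another 4 of the leading genes missed the threshold without some arrays. AT4G28180 rose by 2.46, with an adjusted p of 0.065 without abci20 replicate 2. AT2G39420 (2.42), AT1G78050 (2.37) and the GATA factor gene CGA1 (2.25) reached 0.077, 0.0967 and 0.0895 at the highest when 1 array was left out. AT1G14890, at 5.86, 5.23 and 4.90 against 2.62, 2.83 and 2.98, rose by 2.52 (SE 0.316) and passed throughout.

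**Figure D2:**
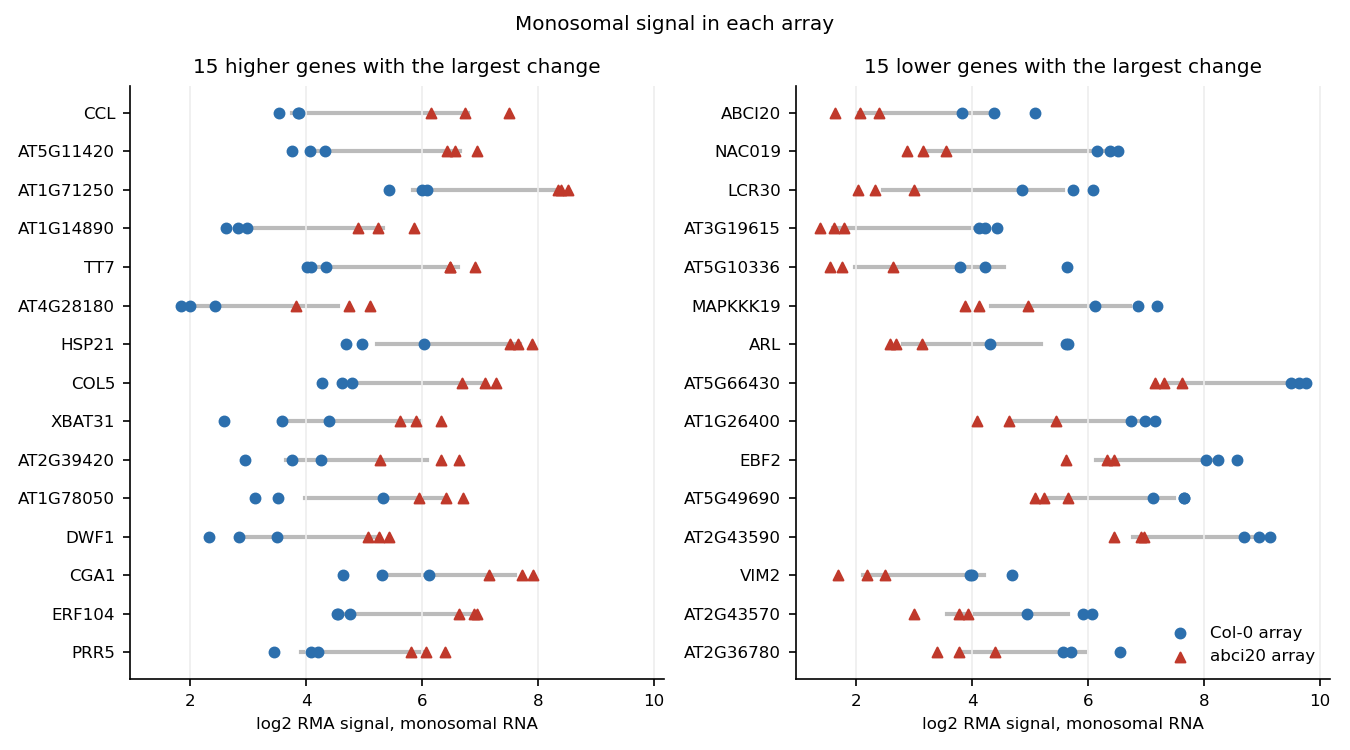
Each row is a gene and the x axis its log2 signal in monosomal RNA, with a blue circle for each Col-0 array, a red triangle for each abci20 array and a grey line between the genotype means. In each of these 30 genes, chosen for the size of their change (15 higher, 15 lower), the 3 mutant arrays stand clear of the 3 Col-0 arrays.

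On the lower side stood NAC019, a transcription factor gene induced by abscisic acid and drought. Its signal was 2.88, 3.15 and 3.55 in abci20 and 6.16, 6.38 and 6.52 in Col-0. It fell by 3.16 log2 (SE 0.285, 8.96-fold, adjusted p = 2.39e-05), the largest fold among the called genes. LCR30, of the defensin-like cysteine-rich peptides, measured 2.33, 2.04 and 3.0 against 6.09, 5.74 and 4.86. It fell by 3.11 (SE 0.564, adjusted p = 0.0101), with an adjusted p of 0.065 without abci20 replicate 2 and 0.0577 without Col-0 replicate 1. LCR30 passed with the 6 compared arrays alone (adjusted p = 0.0349). AT3G19615 measured 1.38, 1.79 and 1.61 against 4.22, 4.43 and 4.12 and fell by 2.67 (SE 0.24, adjusted p = 2.39e-05). Its mutant values were below 2.31, the upper bound of the dimmest quartile.

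Genes of organ growth and of ethylene signalling were among the lower ones. ARL, which promotes organ growth through cell expansion, measured 3.13, 2.58 and 2.69 against 5.62, 5.65 and 4.30, and fell by 2.39 (SE 0.32, adjusted p = 0.00147). EBF2, an F-box protein that targets the ethylene factor EIN3 for degradation, measured 6.44, 5.62 and 6.32 against 8.23, 8.03 and 8.57, and fell by 2.15 (SE 0.278, adjusted p = 0.00125). AT5G66430 was the brightest of these genes, at 7.30, 7.16 and 7.62 against 9.63, 9.75 and 9.49, and fell by 2.27 (SE 0.303). AT5G49690 and AT2G36780 fell by 2.14 and 2.08, and these 5 genes also passed without any 1 compared array. ARL and AT2G36780 missed with the 6 compared arrays alone (adjusted p = 0.0662 and 0.0745). The remaining large decreases depended on single arrays: MAPKKK19 (-2.4), AT1G26400 (-2.24), AT2G43590 (-2.14), the chitinase gene AT2G43570 (-2.08), AT5G10336 (-2.57) and VIM2 (-2.09), a gene for maintenance of DNA methylation. Without abci20 replicate 2 their adjusted p was 0.0742, 0.148, 0.0742, 0.166, 0.167 and 0.138, in the same order. VIM2 missed the threshold whichever compared array was left out, and also with the replicate number as a block (adjusted p = 0.053). AT2G43590 passed with the 6 compared arrays alone (adjusted p = 0.0297).

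Gene lists were then read against the genome-wide shares of 1.09% higher and 0.744% lower. Their 476 loci held 49 called genes. Counts and medians describe the lists; no list was tested as a whole, and the lists were drawn up with earlier results of these data known.

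Heat shock proteins and factors held the most called higher genes of the lists. Of 21 members, 7 rose, 0 fell and 18 had a positive difference, with a median of 0.57 log2, while 47.1% of all probe sets were positive. Besides HSP21 these were the small heat shock genes HSP17.6II, ATHSP22.0, AT5G51440 and HSP18.2, the heat-induced coactivator gene MBF1C and a further small heat shock gene. HSP17.6II, a cytosolic chaperone gene, measured 10.25, 10.55 and 10.06 in abci20 and 8.09, 8.95 and 8.68 in Col-0, a rise of 1.71 (SE 0.276, adjusted p = 0.00502). ATHSP22.0, of the endomembrane system, measured 8.81, 8.86 and 8.85 against 6.95, 7.37 and 7.28 and rose by 1.64 (SE 0.26, adjusted p = 0.00459). Neither gene's groups overlapped, and in 15 of the 21 members the mutant arrays all lay above Col-0 (19.8% of all probe sets did not overlap, in either direction). HSP21, HSP17.6II, ATHSP22.0 and AT5G51440 passed without any 1 compared array. HSP18.2 and MBF1C had an adjusted p of 0.122 and 0.176 without abci20 replicate 2. The number of higher members was 4 to 8 with 1 compared array left out and 1, ATHSP22.0, with the 6 compared arrays alone. In polysomal and total RNA the median of the list was 0.68 and 0.38.

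Endoplasmic reticulum chaperones had a median of 0.35 over 15 members, but only UNE5, a protein disulfide isomerase gene, was called higher, by 0.95 (adjusted p = 0.0407, and 0.192 without abci20 replicate 2). The lectin chaperone gene CNX1 measured 5.84, 5.75 and 5.28 against 4.97, 4.41 and 4.47, a difference of 1.0 that missed the threshold (adjusted p = 0.0729) and passed with the replicate number as a block (adjusted p = 0.026).

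Clock and clock-output genes gave 5 higher and 0 lower of 26, with a median of 0.22. CCL, COL5 and PRR5 are described above. GRP7, a clock-controlled RNA-binding protein gene, measured 9.16, 9.32 and 8.90 against 7.36, 7.60 and 7.75, a rise of 1.56 (SE 0.266, adjusted p = 0.00751, and 0.0501 without abci20 replicate 2). TOC1, of the evening loop, rose by 0.98 (adjusted p = 0.0341, and 0.135 without abci20 replicate 1). GI and LKP2, other evening components named after their values were seen, each differed by -0.59 without passing. The list had 3 higher members without abci20 replicate 2 and with the 6 compared arrays alone.

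In the flavonoid pathway, 3 of 21 members rose and 0 fell, and all 3 encode early enzymes of the route. Besides TT7 they were chalcone synthase TT4, which makes the first intermediate, and flavanone hydroxylase F3H. TT5, CHIL and FLS1, also of the early route, were not called. F3H measured 7.4, 7.56 and 7.36 against 5.67, 6.01 and 5.91 and rose by 1.58 (SE 0.225, adjusted p = 0.00195, and 0.0509 with the 6 compared arrays alone). TT4 measured 4.87, 4.21 and 4.64 against 2.44, 2.78 and 3.23 and rose by 1.75 (adjusted p = 0.0342), but its adjusted p was 0.0566 to 0.139 when any 1 compared array was left out. The list's median was -0.12 and its mean 0.14, and 9 of the 21 members were positive. The median had no steady sign: it was 0.01 without Col-0 replicate 1, 0.10 without abci20 replicate 2 and 1.66 over the 4 members left when dim probe sets were dropped.

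**Figure D3:**
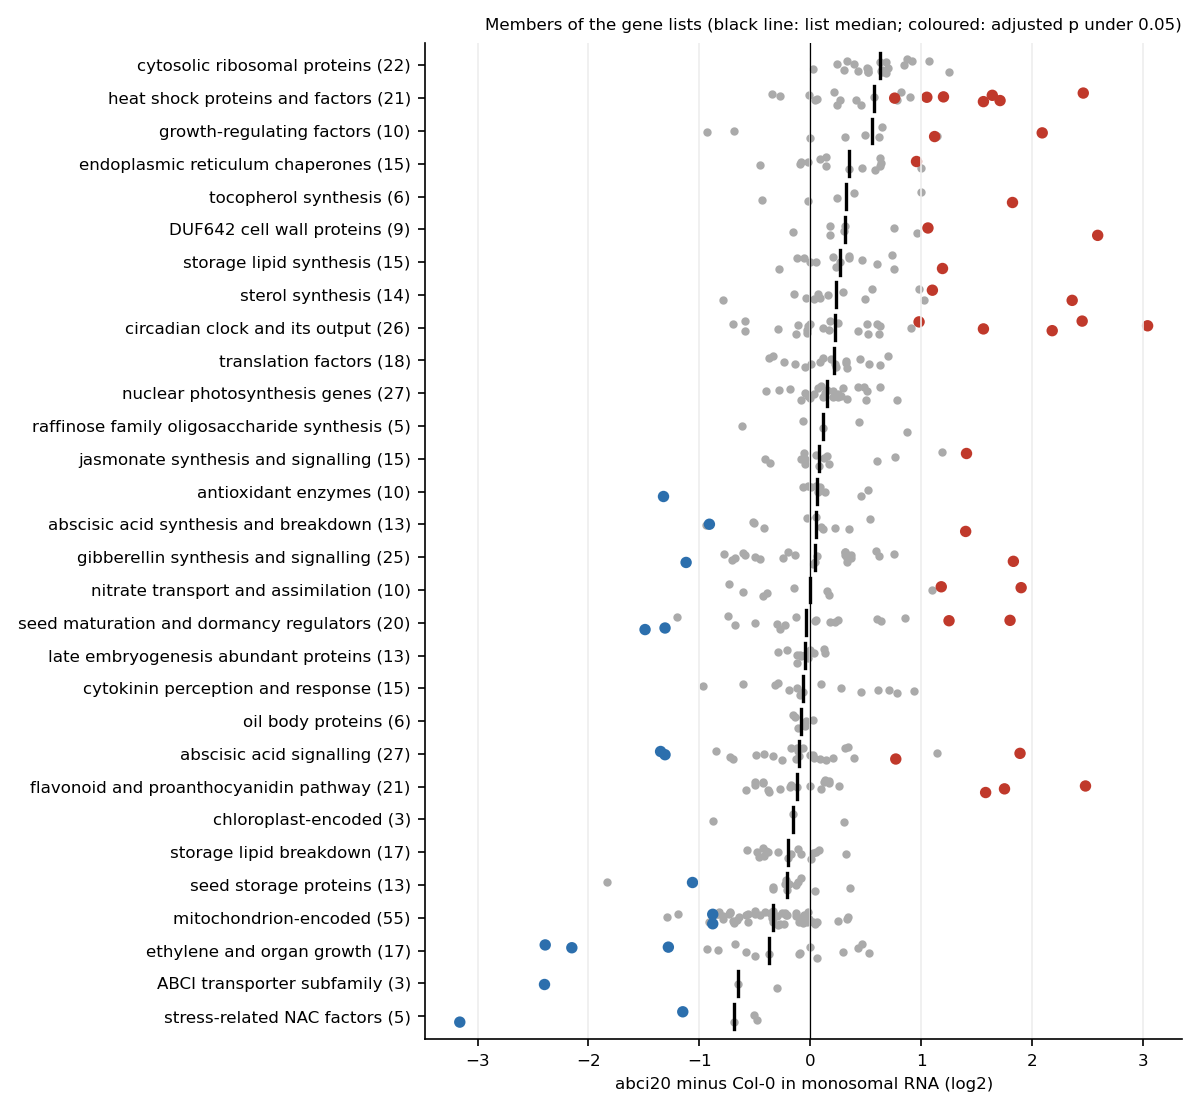
Each point is a member of a gene list and the x axis its difference abci20 minus Col-0 in monosomal RNA (log2); the number of members follows the list name, coloured points passed an adjusted p of 0.05 and a black line marks the list median. Ribosomal and heat shock genes lie furthest to the right by median (0.63 and 0.57), and the NAC factors furthest to the left (-0.69).

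Hormone lists changed in both directions. In abscisic acid signalling, 2 of 27 members rose and 2 fell, with a median of -0.10. ABI1, a protein phosphatase that holds the pathway off, measured 4.68, 4.64 and 4.40 against 5.68, 5.92 and 6.05 and fell by 1.31 (SE 0.234, adjusted p = 0.00955, and 0.0741 with the 6 compared arrays alone). A second phosphatase gene, HAI2, fell by 1.35 (adjusted p = 0.0171), whereas the receptor gene RCAR3, also known as PYL8, rose by 1.89 and the bZIP gene EEL by 0.77. Of these 4 only ABI1 passed without any 1 compared array; the highest adjusted p was 0.0852 for HAI2, 0.182 for RCAR3 and 0.159 for EEL. For synthesis, NCED9, a seed-expressed dioxygenase of the committed step, measured 5.89, 5.61 and 5.79 against 4.32, 4.07 and 4.70 and rose by 1.40 (SE 0.224, adjusted p = 0.00477, and 0.0745 with the 6 compared arrays alone). ABA3, which activates the enzyme of the last step, fell by 0.91 (adjusted p = 0.0328, and 0.111 without Col-0 replicate 1).

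Ethylene and organ growth genes gave 0 higher and 3 lower of 17, with a median of -0.37. Besides ARL and EBF2, the central ethylene signalling gene EIN2 measured 3.98, 4.58 and 4.71 against 5.43, 5.94 and 5.75 and fell by 1.28 (SE 0.211, adjusted p = 0.00579, and 0.116 with the 6 compared arrays alone). All 5 stress-related NAC genes were lower in every mutant array than in every Col-0 array, and 19.8% of all probe sets likewise did not overlap, in either direction. Of the 5, NAC019 and RD26 passed, the latter by -1.15 (adjusted p = 0.0119, and 0.0765 without abci20 replicate 2), and the list median was -0.69. In gibberellin genes 1 of 25 rose and 1 fell. GA20OX3, of gibberellin synthesis, rose by 1.83 and GA2OX6, of gibberellin breakdown, fell by 1.12, yet their adjusted p reached 0.133 and 0.164 without abci20 replicate 2. Among 15 jasmonate genes, allene oxide synthase AOS rose by 1.40 (adjusted p = 0.0101, and 0.0618 without abci20 replicate 2). No member of the 15 cytokinin genes passed, and 4 had an unadjusted p under 0.05 in limma, 3 higher and 1 lower, against 14.9% of all probe sets.

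For the most abundant maturation messages no call was made in the late embryogenesis abundant and oil body lists. None of 13 late embryogenesis abundant genes and none of 6 oil body genes passed, with 0 members at an unadjusted p under 0.05 in either list. Their medians were -0.05 and -0.08, and individual differences ran from -0.29 to 0.13 and from -0.16 to 0.02. Negative differences were found in 10 of 13 late embryogenesis abundant and 5 of 6 oil body genes. The mutant arrays all lay below Col-0 in 5 and 1 of them, and all above in 1 and 0. Among all probe sets 19.8% did not overlap, in either direction. Genes of these lists lay at or above percentiles 98.3 and 96.6 of every monosomal array, near the top of the signal range. Whether compression there hides a change was not tested. Of 13 storage protein genes only AT2G18540, a cupin gene, fell, by 1.07 (adjusted p = 0.0293, and 0.14 without abci20 replicate 2). In that list 11 of 13 members were negative, the median was -0.21 and the mean -0.34, and in 6 the mutant arrays all lay below Col-0 (19.8% of all probe sets did not overlap, in either direction). AT1G03890, another cupin gene, measured 7.45, 6.46 and 8.28 against 9.45, 9.17 and 9.07, a difference of -1.83 that missed the threshold (adjusted p = 0.108) with a wide scatter in the mutant.

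Among maturation and dormancy regulators, 2 of 20 rose and 2 fell. E12A11, the gene better known as MFT, which regulates germination through abscisic acid and gibberellin, measured 8.14, 7.91 and 8.12 against 9.36, 9.61 and 9.68. It fell by 1.49 (SE 0.209, adjusted p = 0.00177) and passed without any 1 compared array, but not with the 6 compared arrays alone (adjusted p = 0.0526). The transcription factor gene ABI4 measured 5.94, 5.91 and 5.42 against 3.56, 4.1 and 4.23 and rose by 1.80 (SE 0.319, adjusted p = 0.0089, and 0.0581 without abci20 replicate 2). PIL5, a phytochrome-interacting repressor of germination, rose by 1.25, and AFP3, of the ABI5-binding proteins, fell by 1.31, with adjusted p of 0.102 and 0.13 without abci20 replicate 2.

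In lipid, sterol and nitrogen metabolism the called list members were few, and they rose. The oleate desaturase gene FAD2 rose by 1.19 among 15 storage lipid synthesis genes, of which 12 had a positive difference (median 0.27). Its adjusted p was 0.0226, and 0.0878 without abci20 replicate 1. Of 17 genes of storage lipid breakdown 0 passed and 4 had an unadjusted p under 0.05, all lower, against 14.9% of all probe sets, with the lipase gene SDP1 at -0.57 (adjusted p = 0.154). In sterol synthesis DWF1 and the isomerase gene HYD1 rose, the latter by 1.1 (adjusted p = 0.0388, and 0.196 without abci20 replicate 2), and 11 of 14 members were positive. G-TMT, the methyltransferase that makes alpha-tocopherol, measured 5.62, 5.91 and 5.65 against 4.23, 3.36 and 4.14 and rose by 1.82 (SE 0.303, adjusted p = 0.00627, and 0.0623 with the 6 compared arrays alone). The nitrite reductase gene NIR1 measured 8.83, 8.71 and 8.77 against 7.49, 7.75 and 7.56 and rose by 1.18 (SE 0.203, adjusted p = 0.00773, and 0.0745 with the 6 compared arrays alone). NRT2.6, of the nitrate transporters, rose by 1.90 (adjusted p = 0.00783, and 0.0582 without abci20 replicate 2). Of the 10 nitrate genes 5 were positive and 5 negative, with a median of 0.00. The catalase gene CAT1 fell by 1.33 (adjusted p = 0.0326, and 0.169 without abci20 replicate 2), whereas 7 of the 10 antioxidant genes were positive.

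Growth-regulating factors, which promote cell proliferation in leaves, gave 2 higher of 10, with a median of 0.56. AT3G13960 (GRF5) measured 7.13, 7.52 and 6.40 against 4.74, 5.30 and 4.74 and rose by 2.09 (SE 0.419, adjusted p = 0.0171), and AT2G36400 (GRF3) rose by 1.12 (adjusted p = 0.0418). Without abci20 replicate 2 their adjusted p was 0.102 and 0.15. Of 9 DUF642 genes 8 were positive, and AT3G08030 (1.06, adjusted p = 0.0165, and 0.0807 without abci20 replicate 1) was called with AT5G11420.

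The listed ribosomal protein messages showed a small difference in one direction. All 22 measured members of the cytosolic list, a chosen part of the family, were positive, with a median of 0.63 log2. In 16 of them the mutant arrays all lay above Col-0, where 19.8% of all probe sets did not overlap in either direction. None passed the adjusted threshold in limma, while 12 had an unadjusted p under 0.05, against 14.9% of all probe sets. AT1G70600 was closest, at 7.12, 7.89 and 7.04 against 5.91, 6.32 and 6.07, a difference of 1.25 (SE 0.326, adjusted p = 0.0597). Averaged over the 22 genes, the signal was 8.13, 8.34 and 7.97 in abci20 and 7.4, 7.72 and 7.50 in Col-0. In polysomal and total RNA the median difference of these genes was 0.41 and 0.35. Translation factors had a median of 0.21, and 0 of 18 passed (4 at an unadjusted p under 0.05, against 14.9% of all probe sets).

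Mitochondrion-encoded transcripts lay the other way. Of 55 with values of their own, 49 were negative, with a median of -0.34. Averaged over the 55, the signal was 6.35, 6.18 and 6.28 in abci20 and 6.64, 6.45 and 6.88 in Col-0, with no overlap. Means of other lists did not overlap either, among them translation factors (7.69, 7.58 and 7.61 against 7.43, 7.54 and 7.41). Gene by gene, the mutant arrays all lay below Col-0 in 13 of the 55 and all above in 0. Of all probe sets, 19.8% did not overlap, in either direction. ATMG01280 fell by 0.88 (adjusted p = 0.0421) and ATMG00490 by 0.88 (adjusted p = 0.0487), yet neither passed without abci20 replicate 2 (0.197 and 0.173). The median was -0.35 in polysomal RNA and -0.05 in total RNA. As background, these messages are translated on the ribosomes of the organelle itself.

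**Figure D4:**
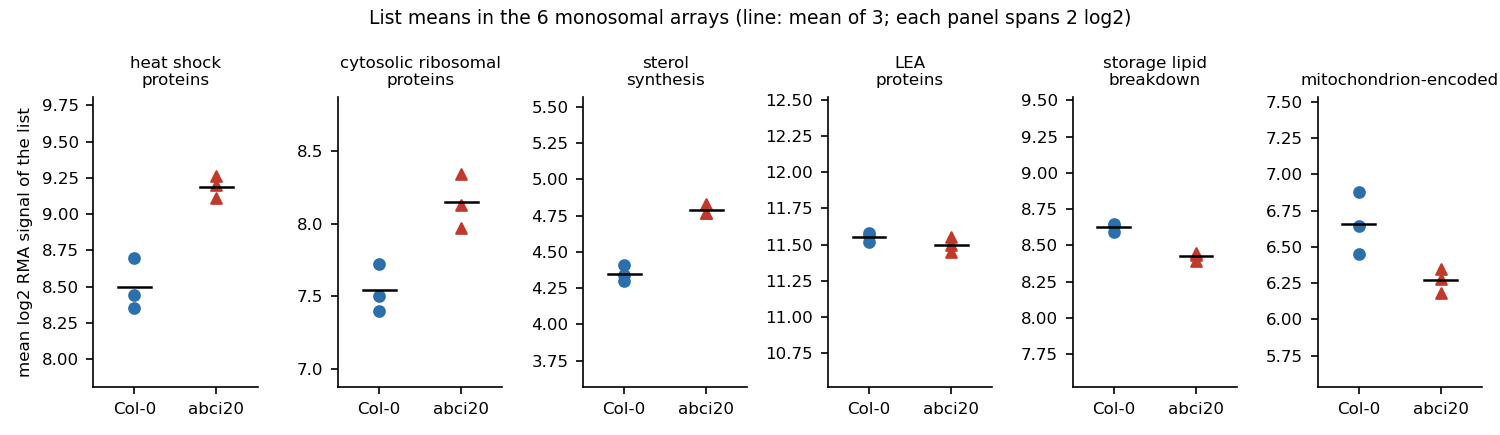
Each panel gives the mean log2 signal of 1 gene list in the 3 Col-0 and the 3 abci20 monosomal arrays, with a line for the mean of 3 and an equal span on every y axis. Heat shock, ribosomal and sterol means are higher in every mutant array, lipid breakdown and mitochondrial means lower, and late embryogenesis abundant (LEA) genes overlap. The lists shown were picked without a rule. Means of several lists not shown, such as translation factors and nuclear photosynthesis genes, did not overlap between genotypes either.

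Of the marker lists, 0 of 5 leaf or seedling markers passed, with a median of 0.25 and all 5 positive. Their mean signal ranged from 3.89 to 4.1 in abci20 and from 3.65 to 3.85 in Col-0. Of 6 endosperm markers only the mannanase gene MAN7, named after its values were seen, was called, at 1.21 (adjusted p = 0.0464, and up to 0.155 with 1 compared array left out). The mean signal of seed coat markers ranged from 2.21 to 2.51 in abci20 and from 2.35 to 2.88 in Col-0, and that of endosperm markers from 4.70 to 5.0 and from 4.49 to 4.85. The part of tissue makeup in the results was not tested.

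The monosomal difference was then set beside those in polysomal and total RNA, which used other arrays of, by the layout, the same seed bulks. Polysomal RNA had 123 called genes (0.442%) and total RNA 932 (3.35%). Of the 123 polysomal genes, 90 (73.2%) were also called in monosomal RNA, all 90 in the same direction, out of 510 monosomal calls. Total RNA shared 232 calls, 45.5% of the monosomal and 24.9% of the total list, 231 of them in the same direction. The spread of a gene was pooled over the fractions, so its calls in them were not independent. A further 269 genes, 186 higher and 83 lower, were called in monosomal RNA and in neither other fraction. That count does not show a difference between fractions, which was tested directly.

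The test of the difference itself called 0 genes in either case. Monosomal against polysomal RNA gave 744 genes at an unadjusted p under 0.05 (2.67%) and a smallest adjusted p of 0.66, and monosomal against total RNA 2270 (8.16%) and 0.23. The 2.67% is less than a threshold of 0.05 gives where no gene differs, and the reason was not tested. A fitted difference of differences had a median SE of 0.412 log2, so only large ones could be seen. That fit took the fractions of a seed bulk as unpaired. With a block by seed bulk, 1621 genes against polysomal RNA and 1326 against total RNA had an unadjusted p under 0.05, and 0 were called. Without abci20 total replicate 1, an array outside the monosomal comparison, 208 genes were called against total RNA. Leaving out Col-0 total replicate 1 gave 2. The 303 genes higher in monosomal RNA had a median of 0.83 in both polysomal and total RNA, with 295 and 285 of them positive. The 207 lower genes had a median of -0.80 in polysomal and -1.07 in total RNA, with 190 and 193 of them negative. The genes were chosen on their monosomal values, so the smaller medians of the other fractions are no test.

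The values of the leading genes in the other fractions are given side by side, with none of these genes called different between fractions. ABCI20 was at -2.4 in monosomal, -2.32 in polysomal and -2.31 in total RNA. HSP21 was at 2.46, 2.89 and 2.27 and EBF2 at -2.15, -2.29 and -2.52. NAC019 was at -3.16, -2.87 and -1.84, all 3 past the threshold. AT3G19615 was at -2.67 in monosomal, -1.05 in polysomal and -0.56 in total RNA. Its monosomal minus total difference was -2.11 (SE 0.339, adjusted p = 0.23). AT1G14890 was at 2.52, 1.1 and 0.92, XBAT31 at 2.43, 1.39 and 0.87, and AT5G10336 at -2.57, -0.35 and 0.32, and in these the polysomal and total values missed the threshold. Their monosomal values did not pass as different either, with an adjusted p of 1 against polysomal RNA and of 0.466 to 0.47 against total RNA.

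**Figure D5:**
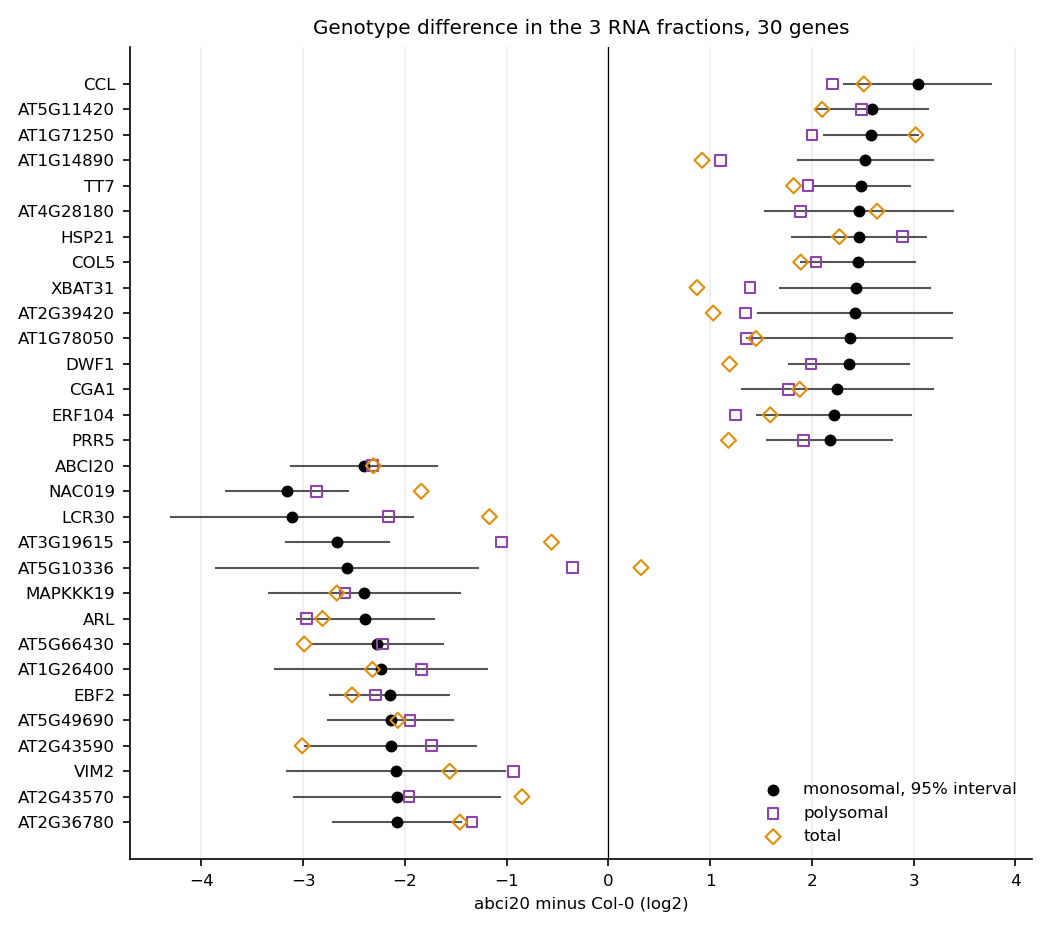
For the 30 genes with the largest monosomal change, the x axis gives the difference abci20 minus Col-0 (log2) in monosomal RNA (black circle with its 95% interval), polysomal RNA (purple square) and total RNA (orange diamond). All polysomal values share the monosomal sign, and AT5G10336 alone has a total value of the opposite sign (0.32).

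Among the genes with the smallest p in the tests between fractions, several were dim. AT5G39180 measured 0.65, 1.0 and 1.28 against 2.19, 1.97 and 2.96 in monosomal RNA. It fell by 1.40 there and differed by 0.53 in polysomal RNA, a gap of -1.92 (95% interval -2.63 to -1.22, adjusted p = 0.66). ACHT3, an atypical thioredoxin gene, fell by 1.54 in monosomal RNA and was at 0.18 in polysomal RNA. Against total RNA, the methyltransferase gene IGMT2 was at -1.58 in monosomal and 1.26 in total RNA, and the protein kinase gene CIPK9 at 0.95 and -0.91. HUA2 and AT3G44840 came up through total RNA, with monosomal differences of 0.16 and -0.45 that did not pass.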

How the data were processed

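Seed RNA was measured on 18 arrays. Per the labels' protocols, RNA was extracted with TriPure, cleaned on RNeasy columns and made into biotin-labelled cRNA with a one-cycle 3-prime kit. The authors used RMA, per the submitters' processing notes, and deposited log2 signals. Its version, and whether it ran on all arrays at once, is not stated there. Scanner output was not used here, which leaves probe-level background unexamined. Precision is limited by the number of arrays.

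From the values of all 18 arrays, 1 mean per group of genotype and fraction was fitted in limma 3.58.1 (R 4.3.3; lmFit, then eBayes), with 12 residual degrees of freedom and a median SE of 0.291 log2 for a genotype difference. Tests were two-sided, with Benjamini-Hochberg adjustment over all 27827 probe sets at 0.05 and no filter on signal. Interaction contrasts compared the genotype difference between fractions. P-values measure the spread of the 18 arrays around their group means, pooled over fractions, with no term for the shared seed bulk. Only the fit to the compared arrays alone rests on the spread of monosomal arrays. Other software was statmod 1.5.0 for robust estimation and, for figures, Python 3.11.15 with matplotlib 3.10.9.

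Symbols came from a RefSeq table (TAIR10.1), which matched 27241 probe sets; 586 kept their locus name. The 30 gene lists held 530 fixed members. Left out were 50 whose values were identical to another probe set's, 2 whose locus carries another symbol and 2 not found under the locus given. Named genes were ABCI20, the 15 higher and 15 lower with the largest change past the threshold, up to 6 called members of each list (or the 2 with the smallest p where fewer than 2 passed) and, for each interaction, the 5 lowest p, with exceptions stated. The comparison, lists and rules were chosen with earlier results of these data known.

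The replicate number was taken as the block of the randomized layout that the labels state. As a check, residuals of arrays with the same number correlated at -0.0604 to 0.245 in 15 pairs, and 5 exceeded 0.1. The fit without a block was the main one, as the labels state no model. Alternatives were the block, only the compared arrays, the 12 monosomal and polysomal arrays, quantile normalization, median centring, only brighter probe sets, array weights, a robust variance trend and leaving out arrays in turn.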

Additional observations from a re-analysis of the deposited data

How the results depend on the processing

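The count of 510 genes in monosomal RNA was 977 with the 12 monosomal and polysomal arrays, 970 with a robust variance trend, 1087 when dim probe sets were dropped, 316 with median centring and 25 with only the compared groups. With 1 array left out it ran from 100 (without abci20 monosomal replicate 2) to 955 (without abci20 total replicate 1). It was 569 with a replicate block, of which 469 were among the 510, and 497 with quantile normalization and with array weights. The block ended the call of VIM2, let CNX1 pass and changed no other call of a gene named by the rule. ABCI20 stayed at -2.40 with only the compared groups but had an adjusted p of 0.0556, against 0.000567 to 0.0147 under the other alternatives, and its change ran from -2.70 to -2.07 with 1 array left out. The count of genes whose difference differed from polysomal RNA was 2 with array weights (AT5G39180 and ACHT3) and 0 under every other alternative run, the replicate block and the block by seed bulk included. Against total RNA it was 1 with array weights (TCP2) and 1 with quantile normalization (AT3G19615), 0 with either block, and 0 to 208 with 1 array left out. The 208 came without abci20 total replicate 1, where 11 of the uniquely measured genes were also called in monosomal RNA, and 2 came without Col-0 total replicate 1. No called gene named by the rule reversed its direction. The list medians of flavonoid, abscisic acid, maturation, gibberellin, cytokinin and jasmonate genes, all within 0.12 of 0, changed sign under some alternatives, and the flavonoid median was 1.66 over the brighter probe sets. The cause of these changes was not tested. With 3 arrays per group, no difference under 1.64-fold was called in the reported fit.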

Other observations

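Outside the gene lists, several genes of carbon metabolism and hormone signalling were among the 80 that passed whichever compared array was left out. They were picked from that set after their values were seen, so they are given as values only. PPC2, a phosphoenolpyruvate carboxylase gene, measured 8.17, 8.05 and 8.05 log2 in the abci20 monosomal arrays and 6.71, 6.99 and 6.73 in Col-0, a rise of 1.28 (SE 0.189, adjusted p = 0.00253). PPCK1, whose kinase acts on that enzyme, measured 8.20, 8.17 and 7.90 against 6.34, 6.36 and 6.14 and rose by 1.81 (SE 0.256, adjusted p = 0.00195). The aldolase gene FBA8 and the cytosolic malate dehydrogenase gene c-NAD-MDH2 rose by 1.66 and 1.61. With the 6 compared arrays alone, PPCK1 passed in limma (adjusted p = 0.0347), while PPC2, FBA8 and c-NAD-MDH2 missed the threshold. In none of these 4 genes did the genotypes overlap, which the way they were picked made nearly certain. Of the 510 called genes 508 did not overlap, against 19.8% of all probe sets.

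AT1G80440, whose Kelch-repeat F-box protein marks cytokinin response regulators for breakdown, measured 7.26, 7.79 and 7.39 against 5.59, 5.80 and 6.0 and rose by 1.68 (SE 0.228, adjusted p = 0.00153). CRF1, of the cytokinin response factors, measured 4.86, 5.24 and 5.82 against 6.50, 6.85 and 7.08 and fell by 1.5 (SE 0.257, adjusted p = 0.00751). CCD7, of strigolactone synthesis, measured 5.44, 4.42 and 5.39 against 6.94, 6.57 and 7.32 and fell by 1.86 (SE 0.288, adjusted p = 0.0039). AT1G80440, CRF1 and CCD7 all missed the threshold with the 6 compared arrays alone.

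The 10 loci next to ABCI20 by locus number were also examined after the other results were seen. None passed the threshold in limma, and their monosomal differences ran from -0.76 (AT5G02240, adjusted p = 0.21) to 0.28 (NAK).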
